A study of Mus musculus with 2 samples.

Results

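The genes described here encode the proteins of the spliceosome and the splicing factors that act with it. They were chosen by symbol among the protein-coding genes of the GENCODE M21 mouse annotation: symbols that begin with Snrp, Lsm and a digit, Sf3a, Sf3b, Prpf or Srsf and a digit, plus U2af1, U2af2 and Sf1. The rule found 61 of 21938 protein-coding genes. By symbol, 47 of them (Snrp, Lsm, Sf3a, Sf3b and Prpf) were grouped as core-particle genes. A further 11 encode SR proteins, and 3 are U2af1, U2af2 and Sf1. The measurement was chromatin immunoprecipitation followed by sequencing (ChIP-seq) for GABPα, the DNA-binding subunit of the Ets factor GABP. It was made in CD4+ T cells of wild-type C57BL/6 mice that had been isolated with MACS beads, and it used 1 ChIP library with an anti-GABPα antibody and 1 input library from cells of the same kind. No treatment is given in the labels, and the age and number of the mice are not given in the sources used here. The values analysed were the positions of the intervals (peaks) at which the authors' peak caller found more ChIP than input signal. They hold no expression values, so the CD4+ T-cell label could not be checked against marker genes.

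The spliceosome removes introns from pre-mRNA and is built anew on each intron from small nuclear ribonucleoproteins (snRNPs), each a small RNA with a set of proteins. Sm proteins form a ring on the U1, U2, U4 and U5 RNAs, LSm proteins form a related ring on U6 RNA, the SF3 complexes hold the U2 snRNP at the branch point, and Prpf proteins assemble and drive the particles through splicing. SR proteins are regulators outside the particles that bind exons through RNA recognition motifs and help to choose splice sites. GABP binds DNA at a GGAA core, and the sequence CCGGAAG that holds this core is a preferred site.

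The sequences below are copies of CCGGAAG from peaks of the 4 kinds of core gene and from all SR peaks that hold it. The core peaks are the widest with CCGGAAG in their group among genes that matched a RefSeq promoter sequence by symbol. The copies are shown so that the bases at either side of the core can be compared. The Prpf19 copy at 128 bp from the start, which has C after it, is not printed. Each is a 27-base window of the mm10 genome, read 5' to 3' on the strand that carries the motif, with the motif in capitals.
Snrpe, chr1:133610258-133610284, minus strand: ggtcttgcttCCGGAAGtcgctttccg
Snrpe, chr1:133610261-133610287, plus strand: aaagcgacttCCGGAAGcaagacccgg
Snrpc, chr17:27840038-27840064, plus strand: agggcagaggCCGGAAGcggaagtcct
Lsm5, chr6:56704666-56704692, plus strand: catggccacgCCGGAAGtggctaagga
Sf3b2, chr19:5295452-5295478, minus strand: gattacgcaaCCGGAAGtttctggaag
Sf3a3, chr4:124714761-124714787, minus strand: tccgcgtgtcCCGGAAGtgtcttgggg
Prpf19, chr19:10895153-10895179, plus strand: ggagcgctcgCCGGAAGaagccgagcc
Prpf19, chr19:10895363-10895389, plus strand: cggcgggggaCCGGAAGtggcccgcgg
Prpf6, chr2:181601330-181601356, minus strand: cacccgcgcaCCGGAAGtagagagctg
Srsf4, chr4:131873417-131873443, minus strand: ggcacttcccCCGGAAGtgcctgcgcg
Srsf5, chr12:80945399-80945425, minus strand: ttcctgggagCCGGAAGttctagtagg
Srsf5, chr12:80945466-80945492, plus strand: tggcaccgccCCGGAAGtgacgccagg
Srsf11, chr3:158036694-158036720, minus strand: aaagctcacaCCGGAAGccccgaccac
Srsf11, chr3:158031774-158031800, plus strand: cgcccatatcCCGGAAGtacgcgtcca
The peaks of 4 other SR genes had no CCGGAAG. In 3 of these genes the peaks had the GGAA core, and the windows below show it in capitals, again on the strand that carries it.
Srsf1, chr11:88047642-88047668, minus strand: gggggagggggaGGAAgagaagccgga
Srsf2, chr11:116853248-116853274, plus strand: ggcgggcgggcGGAAagcgcgcagtca
Srsf2, chr11:116853691-116853717, minus strand: cagcgcccgccgGGAAatgtagtcccg
Srsf7, chr17:80207397-80207423, plus strand: agaagctgggcGGAAacagcctagagg
The fourth, Srsf6, had no GGAA in its peak on either strand.

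A peak lay within 1000 bp of an annotated transcript start of 40 of the 61 genes, or 65.6% (Wilson 95% interval 53.0 to 76.3%). Among all 21938 protein-coding genes the share was 17.7%. The 61 genes have more annotated transcript starts, with a median of 5 against 3 for all protein-coding genes. With the annotated gene start only, the shares were 62.3% and 16.4%. Of the 3880 protein-coding genes with a peak, 3226 have a CpG-rich start, taken here as a GC content of at least 50% and an observed to expected CpG ratio of at least 0.6 in the 500 bp around the start. Of the 61 splicing genes, 54 have such a start. Within that class the share was 38 of 54 splicing genes, or 70.4% (57.2 to 80.9%), and 30.9% of all 10433 protein-coding genes of the class. A peak that covered a transcript start was found at 36 of the 61 genes (59.0%), and at 13.9% of all protein-coding genes. Among genes with a CpG-rich start, it was found at 34 of 54 splicing genes (63.0%) and 24.5% of all. Intervals on shares cover counting error only, because there was a single ChIP library and no replicate, and genes are not replicates of the library. The depth of the libraries is unknown because the peak list carries no counts, heights or scores. A gene without a peak is a gene at which no interval passed the authors' threshold, and weaker binding there was not measured.

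The distances did not crowd around the limit of 1000 bp. The closest peak of each of the 40 genes covered a start or lay at most 62 bp from one, the value at Srsf2. The nearest peak among the 21 other genes was 2774 bp away, at Srsf12, and the median was 45518 bp. The same 40 genes were therefore found with limits of 500 bp and 2000 bp.

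**Figure D1:**
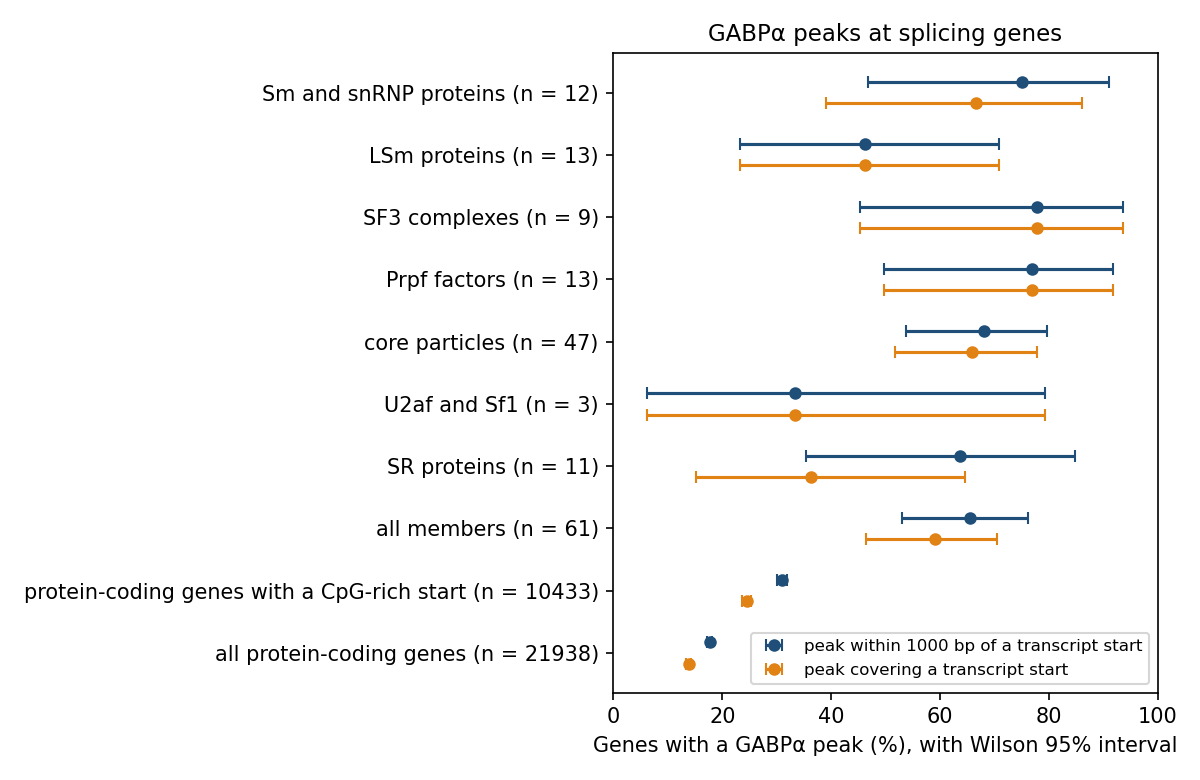
Share of genes with a GABPα peak within 1000 bp of a transcript start (blue) and with a peak that covers a start (orange), in percent on the x axis, by role, with all protein-coding genes and those with a CpG-rich start for comparison. Points are shares in 1 ChIP library and bars are Wilson 95% intervals. For SR proteins the share was 63.6% within 1000 bp and 36.4% over a start, while for core particles it was 68.1% and 66.0%.

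Of the 12 Snrp genes, 9 had a peak (75%, 46.8 to 91.1%). Among the 7 Sm proteins that form the ring, 6 had a peak (Snrpb, Snrpd1, Snrpd2, Snrpd3, Snrpe and Snrpg) and Snrpf did not. This grouping into assemblies, and those below, were made after the values were seen. The nearest peak to Snrpf was 300056 bp away. The U1 snRNP proteins Snrpa and Snrpc and the U2 snRNP protein Snrpb2 had peaks, whereas Snrpa1, the partner of Snrpb2 in the U2 snRNP, had none, with the nearest at 10585 bp. Snrpn, which encodes the SmN relative of SmB found mainly in neurons, also had none.

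The peak of Snrpe (ENSMUSG00000090553.8, chr1:133610081-133610441) was the widest of the Snrp genes at 361 bp. It held CCGGAAG on both strands, centred at -59 and -56 bp from the start, so that the copies shared bases with each other. Snrpd2 and Snrpd3 each had a pair of peaks, and none of the 4 held CCGGAAG. Snrpg had a peak of 151 bp that ended 38 bp before its nearest start, and it was the sole core gene with a peak but none over a start. The Snrpc peak (chr17:27839944-27840213) covered a start that lies 1934 bp inside the annotated gene. In this peak 87.7% of the 36-base sequences, the read length, occur at a single place in the genome, the lowest share of any splicing-gene peak.

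The LSm genes had the lowest share among the core groups, 6 of 13 (46.2%, 23.2 to 70.9%). Peaks were found at Lsm2, Lsm4, Lsm5 and Lsm8, 4 of the 7 proteins of the U6 ring, and not at Lsm3, Lsm6 and Lsm7. Lsm1, which takes the place of Lsm8 in the cytoplasmic ring for mRNA decay, had a peak (chr8:25785447-25785651) with 2 copies of CCGGAAG, and a peak was also found at Lsm14b, a protein of cytoplasmic mRNA granules. No peak was found at Lsm10 and Lsm11, which belong to the U7 snRNP for histone pre-mRNA processing, or at Lsm12 and Lsm14a. The peak of Lsm4 (ENSMUSG00000031848.15, chr8:70673289-70673735) was the widest of all splicing genes, at 447 bp, wider than or as wide as 98.5% of the peaks in the list. It covered a start and reached into the gene, with its midpoint at 133 bp and its CCGGAAG at 229 bp. The peak of Lsm14b, 135 bp wide, had no GGAA on either strand.

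Among the 9 genes of the SF3 complexes, 7 had a peak (77.8%, 45.3 to 93.7%), all 7 over a transcript start. They were the 3 subunits of SF3a (Sf3a1, Sf3a2 and Sf3a3) and 4 of the 6 SF3b genes chosen by symbol. These 4 were Sf3b1, the large subunit that clasps the branch helix, Sf3b2, Sf3b4 and Sf3b6, which sits at the branch adenosine. Sf3b3 and Sf3b5 had none, and the nearest peak to Sf3b5 was 3010 bp away. CCGGAAG was found in 6 of the 7 peaks. Sf3b1 held the shorter CGGAAG alone. The peak of Sf3b4 (ENSMUSG00000068856.3, chr3:96172305-96172709) was 405 bp wide and held 3 copies, all downstream of the start at 119, 174 and 335 bp. The Sf3b2 peak (chr19:5295345-5295723) was 379 bp wide, with 1 copy at -62 bp. In Sf3a1 the copy was centred on the start itself, and in Sf3a3 it was at -2 bp.

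Of the 13 Prpf genes, 10 had a peak (76.9%, 49.7 to 91.8%), each over a start. With a peak were Prpf3, Prpf4, Prpf6, Prpf8 and Prpf31, proteins of the U4/U6.U5 tri-snRNP, Prpf38a and Prpf38b, the kinase Prpf4b, the second-step factor Prpf18 and Prpf19, the ubiquitin ligase of the complex that joins the spliceosome on activation. Prpf39 and Prpf40b, proteins associated with the U1 snRNP, had no peak, and the nearest were 24326 and 25718 bp away. Prpf8, the large protein at the catalytic centre, had a peak of 306 bp with 3 copies of GGAA and no CCGGAAG. Prpf19 (ENSMUSG00000024735.13, chr19:10895098-10895407) had 3 copies of CCGGAAG in 310 bp, all on the gene strand. Prpf4b had a peak over a start and another that ended 723 bp before one, each with 1 copy of CCGGAAG. The peak of Prpf6 (chr2:181601168-181601438) did not touch the annotated gene start and covered a transcript start 9448 bp inside the gene.

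U2af2, which binds the polypyrimidine tract before the 3' splice site, was the single splicing gene with 3 peaks (ENSMUSG00000030435.16, chr7:5061606-5061747, chr7:5062121-5062414 and chr7:5062589-5062811). They were 142, 294 and 223 bp wide, and each held 1 copy of CCGGAAG. U2af1, its partner that reads the AG at the 3' splice site, had no peak, and the nearest was 743998 bp away, the largest distance among the 61 genes. Sf1, which recognises the branch point before the U2 snRNP does, had none either, with the nearest at 278540 bp.

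Among the 11 SR genes, 7 had a peak (63.6%, 35.4 to 84.8%). Srsf1 (SF2/ASF), Srsf2 (SC35), Srsf4, Srsf5, Srsf6, Srsf7 and Srsf11 had peaks, and Srsf3, Srsf9, Srsf10 and Srsf12 had none. A start was covered in 4 of the 7, namely Srsf1 (chr11:88047595-88047730), Srsf5 (chr12:80945304-80945571), Srsf6 and Srsf11. The peak of Srsf4 (ENSMUSG00000028911.16, chr4:131873277-131873614), the widest of the SR genes at 338 bp, stopped 3 bp before the start. That of Srsf7 (chr17:80207326-80207513) stopped at 19 bp, and the nearer peak of Srsf2 (chr11:116853156-116853265) at 62 bp. The farther peak of Srsf2 (chr11:116853645-116853776) was 551 bp from its start. Srsf11 had a peak at its gene start (chr3:158036518-158036815) and another, of 220 bp, at a start 4885 bp inside the gene (chr3:158031682-158031901), and both held CCGGAAG. The peak of Srsf6 (chr2:162931424-162931529) was the narrowest of all splicing genes at 106 bp, and 82.1% of its bases were G or C.

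The design of the list asks whether core-particle genes and SR genes differ. By the limit of 1000 bp, 32 of 47 core genes (68.1%, 53.8 to 79.6%) and 7 of 11 SR genes had a peak, a difference of 4.45 percentage points with a Newcombe 95% interval from -21.1 to 34.96. By the stricter measure of a peak over a start, it was 31 of 47 core genes (66.0%) and 4 of 11 SR genes (36.4%). That is a difference of 29.6 points (-2.07 to 53.9). The share over a start was 13.9% for all protein-coding genes and 24.5% for those with a CpG-rich start. Peaks with CCGGAAG were found at 21 of 47 core genes (44.7%) and 3 of 11 SR genes (27.3%), a difference of 17.4 points (-14.7 to 39.9), against 10.7% of all protein-coding genes and 19.3% of those with a CpG-rich start. Peaks that both covered a start and held CCGGAAG were found at 20 of 47 (42.6%) and 2 of 11 (18.2%). That is a difference of 24.4 points (-7.90 to 43.6). They were found at 8.67% of all protein-coding genes and 15.8% of those with a CpG-rich start. Each of the 4 intervals includes 0, so a difference between core and SR genes was not resolved with 11 SR genes. The upper bounds lie between 34.96 and 53.9 points, so these counts do not show that the shares are alike either. The core group, made by symbol, includes 6 LSm genes whose proteins are outside the U6 ring. Without them 30 of 41 core genes (73.2%) had a peak within 1000 bp, 9.53 points above the SR share.

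**Figure D2:**
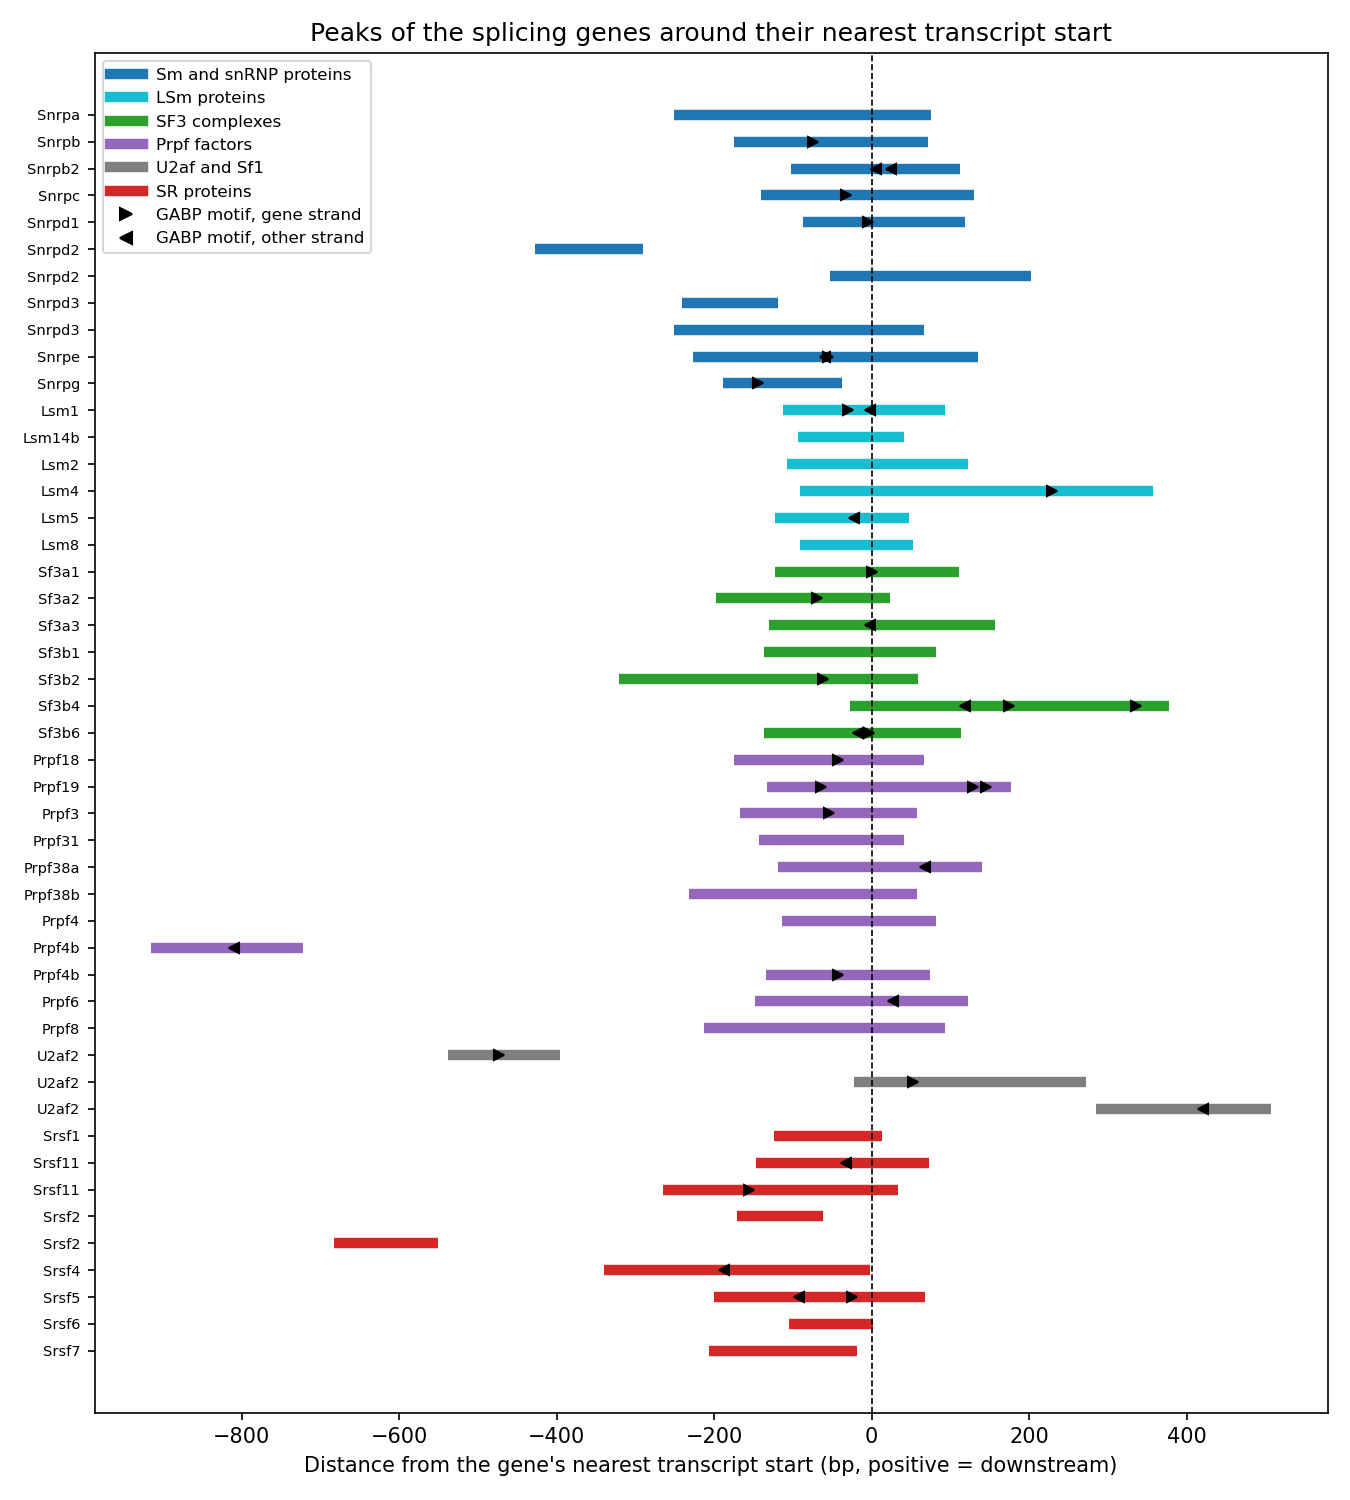
Each of the 47 peaks of the splicing genes as a bar on the distance in bp from the gene's nearest transcript start (dashed line, positive values downstream), coloured by role, with 1 row per peak and black triangles for CCGGAAG on the gene strand (pointing right) or the other strand (pointing left). Peaks of 1 gene are drawn from the start nearest to each, which can differ. Most bars of the core genes cross the line, while 4 of the 9 SR bars end before it.

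The 40 genes had 47 peaks of the 6782 in the list, of which 3459 lay near protein-coding starts. A single peak was found at 34 genes, and 6 genes had more: Snrpd2, Snrpd3, Prpf4b, Srsf2 and Srsf11 with a pair and U2af2 with 3. These 6 are 15.0% of the 40 genes, against 7.76% of all protein-coding genes with a peak. The splicing genes also have more annotated transcript starts, as given above. Core peaks covered a start of their own gene in 31 of 35 cases (88.6%) and SR peaks in 5 of 9 (55.6%). All peaks near protein-coding starts covered a start in 80.2% of cases, counting the nearest start of any coding gene. The midpoint of the peak lay downstream of the start in 9 of 35 core peaks and in 0 of 9 SR peaks. Median midpoints were at -27.5 bp for core peaks, -112.5 bp for SR peaks and -30 bp for all 3459. The value for all 3459 was again taken from the nearest start of any coding gene, so the measures are not alike. The peaks of Srsf2 and Srsf7, and a peak each of Snrpd2 and Snrpd3, lay nearer to a start of a neighbouring gene, as given below. Peaks of 1 gene share their locus, so these are descriptions of positions and not independent observations.

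The peak list gives no height, so width is the only size it holds. The 47 peaks had a median width of 225 bp (106 to 447 bp), and all peaks near protein-coding starts had a median of 210 bp. The median was 233 bp for core peaks and 188 bp for SR peaks. By group it was 246 bp for Snrp genes, 188 bp for LSm genes, 250 bp for SF3 genes and 242 bp for Prpf genes, and all 18 peaks of the SF3 and Prpf groups were 184 bp or wider. The SR peaks were, in order of width, 106 bp at Srsf6, 110 and 132 bp at Srsf2, 136 bp at Srsf1, 188 bp at Srsf7, 220 bp at the inner start of Srsf11, 268 bp at Srsf5, 298 bp at the gene start of Srsf11 and 338 bp at Srsf4. The 4 widest held CCGGAAG and the 5 narrowest did not.

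**Figure D3:**
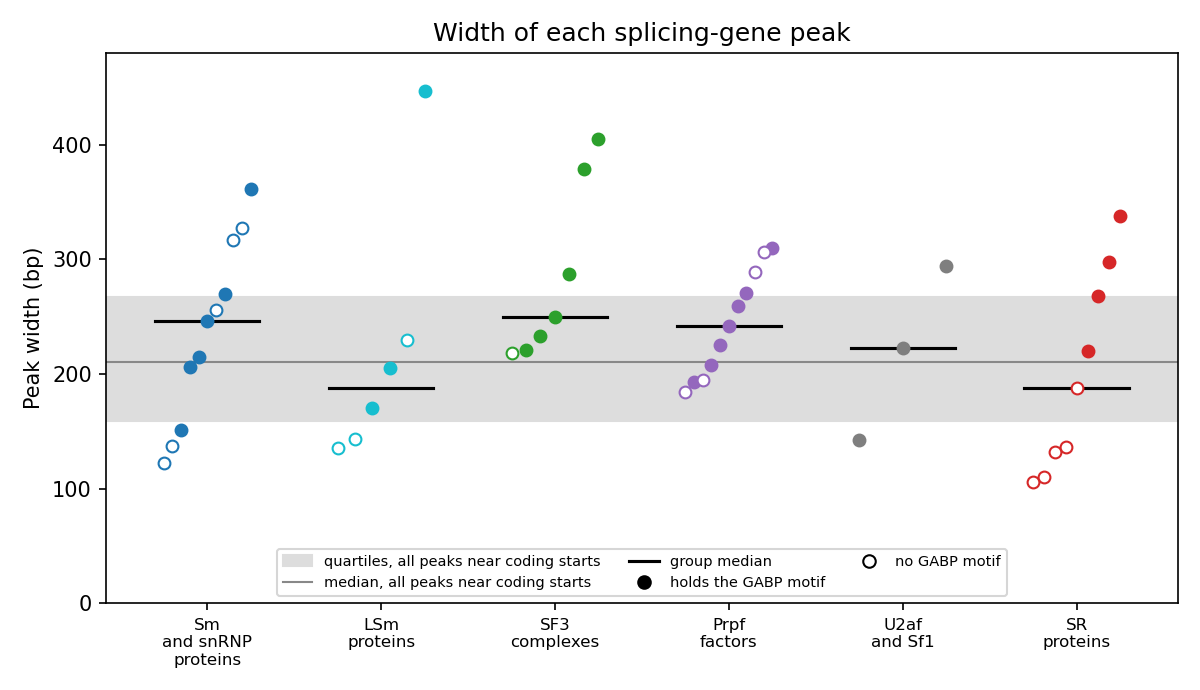
Width in bp of each of the 47 peaks (points) by role, with filled points for peaks that hold CCGGAAG, open points for peaks that do not, black lines at group medians, and the median (grey line) and quartiles (grey band) of all 3459 peaks near protein-coding starts. The SF3 and Prpf points begin at 218 and 184 bp, while SR points reach down to 106 bp, and the open SR points are all below the filled ones.

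CCGGAAG was searched as these exact letters on both strands, and each copy also contains CGGAAG and GGAA. It was found in 29 of the 47 peaks (61.7%, 47.4 to 74.2%) and in 57.2% of all peaks near protein-coding starts. The share was 22 of 35 core peaks (62.9%) and 4 of 9 SR peaks (44.4%). CGGAAG was in 34 of the 47 peaks (72.3%), against 76.6% of all, and GGAA in 45 (95.7%), against 98.8%. Wider peaks have more room for a motif, and in the list the share with CCGGAAG was 35.6% at widths under 150 bp, 50% (398 of 796 peaks) from 150 to under 200 bp, 62.6% from 200 to under 250 bp and 71.1% from 250 to under 300 bp and 74.6% from 300 bp. In the same classes the splicing-gene peaks had it in 1 of 9, 3 of 6, 11 of 13, 8 of 10 and 6 of 9 cases, so the share was above that of the list from 200 to under 300 bp and not in the other classes. Of the 9 narrow peaks 4 belong to SR genes and 4 to core genes, all 8 without CCGGAAG, and the part of width in the lower SR share was not tested.

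The 29 peaks held 38 copies of CCGGAAG, and 7 of them held more than 1 copy. Of all peaks near protein-coding starts, 1979 held CCGGAAG, and 481 of these held more than 1 copy. The base before the motif was A in 14 copies (36.8%), against 26.2% of the 2572 copies in all peaks near protein-coding starts, and the base after it was T in 17 (44.7%), against 46.5%. T follows the motif in 4 of the 5 SR copies printed above: both of Srsf5, that of Srsf4 and the inner copy of Srsf11. Among all core copies, including those not printed, T follows 12 of 30 (40.0%). The 5 SR copies come from 3 genes, and this contrast was not tested. The motif lay on the gene strand in 23 copies (60.5%) and on the other in 15, against 51.5% on the gene strand for all 2572 copies. The median position was -24 bp for the splicing genes and -26 bp for all, and 26 copies (68.4%) lay within 100 bp of the start, against 75.04%. The copies of SR genes lay between -187 and -25 bp, all upstream.

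The promoter sequence of a gene can also be read whether or not it has a peak. RefSeq promoters of the GRCm38.p6 build, 250 bp before to 50 bp after each gene's start, matched 51 of the 61 genes by symbol. CCGGAAG was in 18 of the 51 (35.3%, 23.6 to 49.0%), against 12.4% of the 16384 protein-coding genes with such a promoter. A CpG-rich start is found at 88.5% of the 61 splicing genes and 47.6% of all protein-coding genes. The promoter shares given here were not compared within that class. Split by peak, it was in 17 of 33 splicing genes with a peak (51.5%, 35.2 to 67.5%) and 1 of 18 without (5.56%, 0.988 to 25.8%). For all protein-coding genes the same shares were 46.2% and 4.42%, and both lie within the intervals of the splicing genes. The single promoter with CCGGAAG and no peak was that of Sf3b3. CGGAAG was in 5 of the 18 promoters without a peak, at Lsm7, Lsm10, Sf3b3, Snrpa1 and Srsf9 (27.8%, 12.5 to 50.9%), against 12.4% of all protein-coding genes without a peak, which lies just below that interval. Among SR genes CCGGAAG was in 4 of 7 promoters with a peak (Srsf4, Srsf5, Srsf7 and Srsf11) and in 0 of 4 without (upper bound 49.0%). The promoter of Srsf7 holds it outside the peak.

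**Figure D4:**
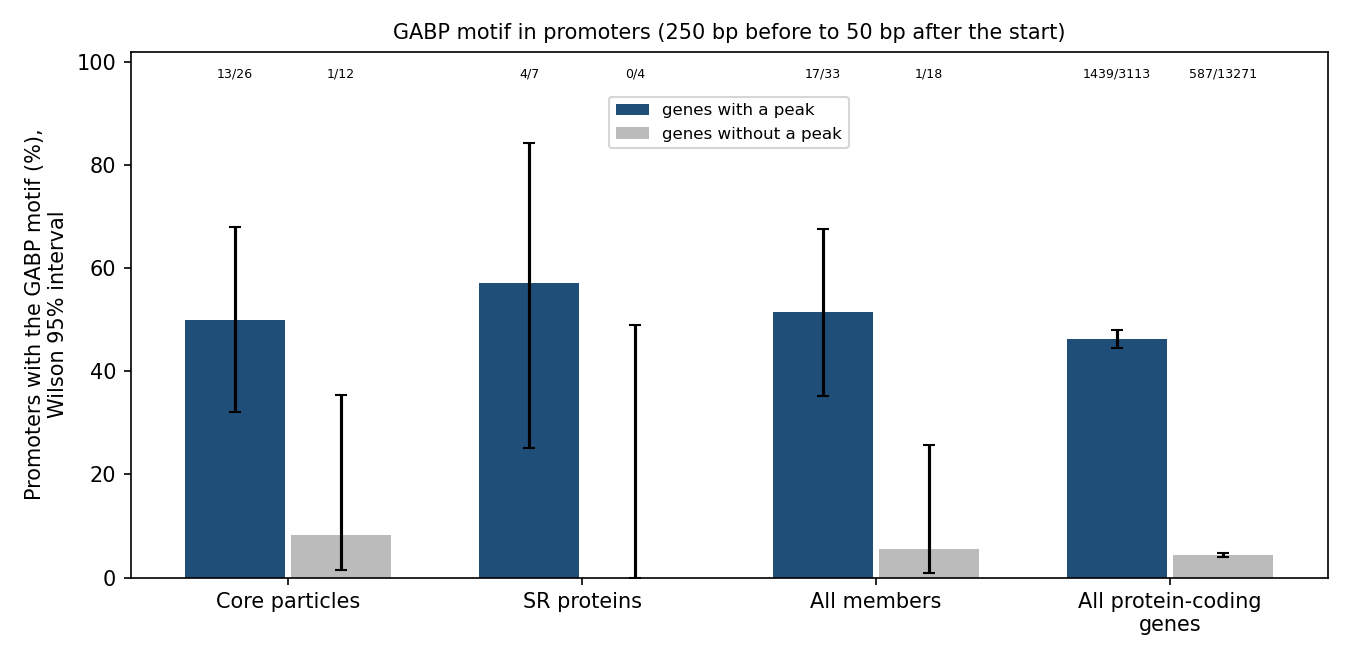
Share of RefSeq promoters (250 bp before to 50 bp after the start) that hold CCGGAAG on either strand, in percent on the y axis, for genes with a GABPα peak (blue bars) and without (grey bars), with counts above and Wilson 95% intervals. Splicing genes had it in 17 of 33 promoters with a peak and 1 of 18 without, and all protein-coding genes had it in 46.2% and 4.42%.

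At 12 of the 40 genes with a peak (Wilson 95% interval 18.1 to 45.4%), the peak also lay within 1000 bp of a start of another protein-coding gene, against 34.3% of all protein-coding genes with a peak. The neighbours, most of them transcribed in the opposite direction from a start close by, were Bag4 for Lsm1, Tfpt for Prpf31, Orc1 for Prpf38a, Cdc26 for Prpf4, Ccdc157 for Sf3a1, Plekhj1 for Sf3a2, BC024978 for Snrpa, Qpctl for Snrpd2, Gucd1 for Snrpd3, Lrrc40 for Srsf11, Mfsd11 for Srsf2 and Ttc39d for Srsf7. The peak at Snrpa has overlapping genes on opposite strands. A peak at such a site cannot be given to either gene from its position alone. Of the SR genes, 3 of 7 with a peak were of this kind, and of the core genes 9 of 32 (28.1%). The peaks of Srsf2 and Srsf7 were nearer to a start of the neighbour. So was 1 peak each of the core genes Snrpd2 and Snrpd3. That Snrpd2 peak was 291 bp from its own start and 4 bp from one of Qpctl. That Snrpd3 peak was 119 bp from its own start and covered one of Gucd1. The Srsf7 peak and the farther Srsf2 peak each covered a start of the neighbour. The nearer Srsf2 peak was 30 bp from a different Mfsd11 start. With each peak counted for its nearest gene alone, 5 of 11 SR genes (45.5%) and 32 of 47 core genes had a peak, against 16.4% of all protein-coding genes.

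Other splicing genes that the symbols do not pick up were listed by function, or by symbol for the Snrnp and Hnrnp genes. A peak was found at 40 of these 73 genes (54.8%, 43.4 to 65.7%). The share was 17.7% for all protein-coding genes and 30.9% for those with a CpG-rich start. Proteins of the tri-snRNP and the catalytic steps had the highest share, 21 of 28 (75%, 56.6 to 87.3%), among them Eftud2, the GTPase of the U5 snRNP, the helicases Dhx8, Dhx16 and Dhx38, and the step factors Cwc22 and Slu7. Hnrnp genes, which encode RNA-binding proteins that often act against SR proteins, had a peak in 9 of 20 cases (45.0%, 25.8 to 65.8%), including Hnrnpc, Hnrnpd and Hnrnpu. Of 12 SR-related proteins and SR kinases, 4 had a peak (33.3%, 13.8 to 60.9%): the kinases Clk2 and Clk3, Srrm1 and Tra2b. Peaks were present at 3 of 7 Snrnp genes (Snrnp27, Snrnp40 and Snrnp200) and at 3 of 6 proteins of the minor spliceosome (Pdcd7, Rnpc3 and Zcrb1). The intervals of these groups overlap, and no difference between them was tested. All of these intervals but that of the tri-snRNP and catalytic-step group include the 30.9% of genes with a CpG-rich start.

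Of the 47 peaks, 42 consist of 36-base sequences that are all unique in the genome. None has 50% or more of its bases in soft-masked repeats, the highest share being 30.04% in a U2af2 peak. Such peaks are rare in the list too, at 1.73% of all peaks near protein-coding starts. Among the 21 genes without a peak, 3 had a peak within 10000 bp: Srsf12, Sf3b5 at 3010 bp and Lsm10 at 7105 bp.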

How the data were processed

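GABPα ChIP-seq of CD4+ T cells was made with 1 ChIP and 1 input library. Reads of 36 bases were trimmed by the authors (Trimmomatic) and mapped to the mm10 genome (Bowtie), and peaks over the input were called at a q-value limit of 0.01 (MACS2), with the tools as named in the submitters' processing notes. The authors deposited the peaks as start and end positions, with no count, height or score, so width stood in for size and no depth or test across replicates could be had. The input entered through the peak calling only.

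Peaks were set on GRCm38.p6 (mm10) with GENCODE M21, taking starts as 0-based in the list and 1-based here. A gene had a peak if an interval lay within 1000 bp of any of its transcript starts. The members and lists were chosen with earlier results of these data known. By the rule for named genes, members were named (1 is not reported by name here), with coordinates, width and motif for the widest peaks with CCGGAAG in each role and for the SR peaks. Sequences were printed only for genes matched by symbol in the RefSeq promoter table. Other peaks were singled out after their values were seen. Sequences are from the genome, and promoters from RefSeq. Shares have Wilson 95% intervals and differences Newcombe 95% intervals (Python 3.11.15, numpy 2.4.6, scipy 1.17.1, numba 0.67.0). Peak assignment and motif search were tested on simulated data and gave the right answer in 400 of 400 and 500 of 500 cases.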

Additional observations from a re-analysis of the deposited data

How the results depend on the processing

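Of 49 alternatives over 10 results, 47 left the result within its 95% interval (Wilson, Newcombe or, for the medians of width and distance, by order statistics) and 2 moved it outside, both by a change of the motif's letters. GGAA in place of CCGGAAG was in 95.7% of the splicing-gene peaks, and CGGAAG in place of CCGGAAG was in 54.9% of their promoters. The share of splicing genes with a peak ranged from 55.7 to 65.6%, the core share from 61.7 to 73.2% and the SR share from 36.4 to 63.6%. The number of SR genes with a peak fell from 7 to 4 when a peak had to cover a start, and likewise when narrower peaks (below the list's median) were dropped. Even this fall lay within the SR interval of 35.4 to 84.8%, so staying within an interval is a loose measure. The limits of 500 and 2000 bp gave the same splicing genes, and the soft-masking filter removed none of their peaks. Those alternatives therefore could not change the shares of splicing genes with a peak. The difference between core and SR genes ranged from 0.193 points, with the annotated gene start only, to 29.6 points, with peaks over a start, and stayed within the interval of the reported value. No paired analysis was possible because the ChIP and the input share no table of values and there is 1 library of each. The single library and the 11 SR genes limit the precision, and the depth of the libraries is unknown.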
